A study of Mus musculus with 24 samples.

Results

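The transcripts of 10 nuclear receptors that govern liver metabolism were followed across 24 livers from male mice fasted for 24 h. The genes, Ppara, Ppard, Pparg, Nr1i2, Nr1i3, Nr1h3, Rxra, Esrra, Nr3c1 and Thrb, were chosen by name and not by their values, and all 10 were found among the 54532 genes of the count table. The mice were 8 to 10 weeks old and on a C57BL/6J background, and livers were collected at 3 pm. There were 6 groups with 4 livers each. Rab30KO mice lacked Rab30, a Golgi-associated small GTPase, in the whole body, through removal of exon 4, and Ctrl mice were their wild-type littermates. Rab30L-/- mice lost Rab30, and Cpt2L-/- mice lost Cpt2, the inner-membrane carnitine palmitoyltransferase needed for mitochondrial oxidation of long-chain fatty acids, through Cre under the albumin promoter, which acts in hepatocytes. DKO mice lost both genes in the same way, and ff;ff mice carried both floxed genes without Cre and were littermates of the DKO mice by their labels. The labels name no littermate controls for Rab30L-/- or Cpt2L-/-, so in comparisons of those groups with ff;ff or DKO the genotype and the litter cannot be told apart.

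Nuclear receptors are transcription factors whose activity is set by small lipophilic ligands, so the amount of receptor transcript is only one layer of their control. Most of the receptors here bind DNA as a pair with an RXR, whereas the glucocorticoid receptor binds mainly as a pair with itself and the estrogen-related receptors often bind alone. In the fasted liver Ppara, activated by fatty acids arriving from adipose tissue, drives fatty acid oxidation and ketogenesis, and the glucocorticoid receptor drives gluconeogenesis. Pparg is the lipid-storage receptor of adipocytes and is low in a lean liver, but rises in fatty liver.

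Libraries held between 11801027 and 24497738 counts assigned to genes. Levels are given as CPM, the count over a library total scaled by the trimmed mean of M-values. A gene was called when it changed by at least 1.2-fold with an adjusted p under 0.05 in edgeR's quasi-likelihood fit, where p-values were adjusted over every gene tested (Benjamini-Hochberg). A log2 fold change is given with its standard error (SE). A count over a whole gene still holds the exons that were not removed, so the counts of the deleted genes do not test the labels. Rab30 was 11.2 ± 5.04 CPM in Rab30KO against 14.1 ± 10.8 in Ctrl (SD, n = 4), 17.1 ± 7.36 in Rab30L-/- against 36.6 ± 9.55 in ff;ff, and 161 ± 57.9 in DKO against 147 ± 30 in Cpt2L-/-. Cpt2 was 127 ± 30.2 CPM in Cpt2L-/- and 105 ± 10.9 in DKO, against 132 ± 5.15 in ff;ff and 219 ± 40.3 in Rab30L-/-. Summed hepatocyte markers (8 genes) were 52179 to 63841 CPM in Cpt2L-/- and 69938 to 85645 in DKO, below the 91737 to 143581 of ff;ff and Rab30L-/-. In bulk liver RNA, fewer cells of a type and less RNA per cell cannot be told apart.

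Pparg was the receptor called in every comparison of livers with and without Cpt2, and Nr1i3 the one called in the test of the interaction between the 2 deletions. The regions just upstream of their annotated starts are shown because a count over the whole gene cannot say which start was used. RefSeq sequences on GRCm38.p6 were at hand for 9 of the 10 genes, with 14 starts in all, and each window covers the 250 bases before a start. Both genes lie on the plus strand, Pparg with 3 starts on chromosome 6 and Nr1i3 with 1 on chromosome 1. Capitals mark the nuclear receptor core motif AGGTCA, the TATA box TATAAA and the E-box CACGTG, searched on both strands.

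Pparg start 1, chr6:115360894-115361143: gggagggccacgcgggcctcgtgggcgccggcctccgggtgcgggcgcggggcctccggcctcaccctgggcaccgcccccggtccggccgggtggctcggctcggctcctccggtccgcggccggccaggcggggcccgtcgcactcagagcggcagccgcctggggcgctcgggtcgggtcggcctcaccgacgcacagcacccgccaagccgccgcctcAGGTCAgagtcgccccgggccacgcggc
Pparg start 2, chr6:115362099-115362348: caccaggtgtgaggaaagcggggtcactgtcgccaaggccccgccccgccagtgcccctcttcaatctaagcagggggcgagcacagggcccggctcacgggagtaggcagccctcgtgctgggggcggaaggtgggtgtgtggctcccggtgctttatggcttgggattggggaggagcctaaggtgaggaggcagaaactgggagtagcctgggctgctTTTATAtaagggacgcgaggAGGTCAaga
Pparg start 3, chr6:115421816-115422065: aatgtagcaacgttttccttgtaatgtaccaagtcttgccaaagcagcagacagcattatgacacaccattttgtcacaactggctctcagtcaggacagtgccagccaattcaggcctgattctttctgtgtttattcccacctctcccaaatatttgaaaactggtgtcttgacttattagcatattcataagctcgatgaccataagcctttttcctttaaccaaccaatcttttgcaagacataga
Nr1i3, chr1:171213720-171213969: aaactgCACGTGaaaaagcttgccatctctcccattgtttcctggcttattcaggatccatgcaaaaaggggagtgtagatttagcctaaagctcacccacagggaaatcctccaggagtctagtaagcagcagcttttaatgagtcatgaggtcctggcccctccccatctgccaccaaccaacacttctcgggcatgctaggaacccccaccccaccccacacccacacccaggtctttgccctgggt

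The first Pparg window had a GC content of 82.4%, the second 63.6% and the third 40.8%, against a median of 52.4% over all 32851 windows. AGGTCA was found in the first 2 Pparg windows and, among the other receptors, in 1 window of Rxra and 1 of Thrb. That made 4 of 14 windows, beside 14% of all windows. The E-box lay in the Nr1i3 window and in 1 of Thrb, where 6.02% of all windows hold it, and TATAAA in 1 window each of Pparg and Thrb, where 12.4% do. The direct repeats AGGTCANAGGTCA and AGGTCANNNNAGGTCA, bound by RXR pairs with PPARs and with the thyroid hormone and oxysterol receptors, occurred in 0 of the 14 windows and in 0.0335% and 0.0152% of all windows. The longer element TCAAGGTCA, bound by estrogen-related receptors, also occurred in 0 of 14 and in 0.387% of all windows. These letters describe the windows and do not show binding.

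Levels of different genes were compared as FPKM, which divides by gene length. Rxra, the shared partner, had the highest mean level, at 82.6 ± 16.4 FPKM (SD over 24 libraries), although its range of 50.1 to 113 FPKM overlapped those of Nr1i2 and Ppara. Nr1i2 followed at 48.7 ± 9.18, Ppara at 43 ± 13.6 and Nr1h3 at 36.5 ± 4.22, and the ranges of these 3 overlapped. Esrra was at 20.6 ± 8.43 FPKM, Nr1i3 at 13.1 ± 5.62 and Nr3c1 at 10.6 ± 2.07, again with overlapping ranges. Pparg (4.68 ± 2.43) and Thrb (4.59 ± 1.09) could not be ranked against each other, and Ppard was lowest at 1.2 ± 0.229 FPKM. The highest group mean was 4.41 times the lowest for Pparg, 2.67 times for Nr1i3 and 2.21 times for Esrra, and between 1.15 and 1.7 times for the other 7.

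**Figure D1:**
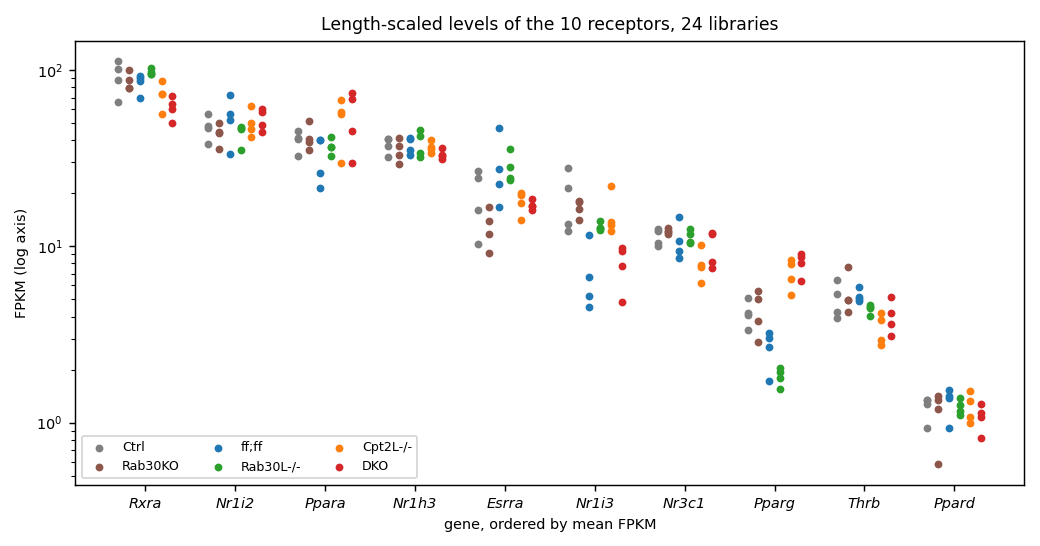
FPKM of each receptor on a log axis, with 1 point per library and colours for the 6 groups, genes ordered by their mean over 24 libraries. Rxra reached 113 FPKM and Ppard stayed between 0.579 and 1.53, while Pparg spread from 1.56 to 9.03 with the highest values in Cpt2L-/- and DKO livers.

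Pparg was higher wherever hepatocyte Cpt2 was missing. The 4 Cpt2L-/- livers had 24.4, 15.3, 23.4 and 19.0 CPM and the 4 DKO livers 25.3, 26.1, 23.5 and 18.4 CPM. The 4 ff;ff livers had 7.77, 8.69, 4.95 and 9.52 CPM and the 4 Rab30L-/- livers 4.53, 5.94, 5.83 and 5.16 CPM, so every liver without Cpt2 stood above every liver of these 2 groups. Ctrl livers (9.97 to 15.2 CPM), from the whole-body line, lay between. Rab30KO livers (8.73 to 16.2 CPM), from the same line, overlapped ff;ff livers at the low end and Cpt2L-/- livers at the high end. Pparg rose 2.63-fold in Cpt2L-/- over ff;ff (log2 fold change 1.39, SE 0.22, edgeR adjusted p = 5.30e-04). It rose 2.99-fold in DKO over ff;ff (1.58, SE 0.21, edgeR adjusted p = 4.70e-04) and 4.34-fold in DKO over Rab30L-/- (2.12, SE 0.16, edgeR adjusted p = 1.57e-05). All 14 alternative fits of each of these comparisons kept the call. Between DKO and Cpt2L-/- the log2 difference was 0.19 (SE 0.17, edgeR adjusted p = 0.538), and between Rab30L-/- and ff;ff it was -0.53 (SE 0.23, adjusted p = 0.417, unadjusted p = 0.0395). The interaction, 0.73 (SE 0.28, adjusted p = 0.134), missed the threshold but was called by limma-voom and without ff;ff replicate 3.

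Pparg is also a defining gene of adipocytes, whose other markers were counted beside it. The 8 adipocyte markers summed to 20.3 to 35.7 CPM in Cpt2L-/-, 24.6 to 43.5 in DKO, 17.5 to 28.1 in ff;ff and 14.1 to 26.0 in Rab30L-/-. Among the sparse markers, Adipoq had 0 counts in all 4 Cpt2L-/- livers, at most 1 in a DKO liver and up to 14 in an ff;ff liver. Lep and Retn were at or near 0 in all 6 groups. Cfd had 1 to 7 counts in Cpt2L-/-, 0 to 3 in DKO, 0 to 39 in ff;ff and 0 in Rab30L-/-. Plin1 had 2 to 7 counts in Cpt2L-/-, 1 to 6 in DKO, 0 to 5 in ff;ff and 0 in Rab30L-/-, and Cidea had 1 to 66 in Cpt2L-/-, 0 to 12 in DKO and 0 to 3 in ff;ff and Rab30L-/-. The 2 markers with enough counts to test went opposite ways in Cpt2L-/- over ff;ff and in DKO over Rab30L-/-. Fabp4, which is itself a Pparg target in fatty liver, rose (1.23, SE 0.25, and 2.15, SE 0.43), and Adrb3 fell (-3.02, SE 0.39, and -2.67, SE 0.59), from 12 CPM in ff;ff and 14.2 in Rab30L-/- to 1.48 and 2.2.

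Ppara, the fatty acid sensor of the fasted liver, had a higher mean in the livers without Cpt2, and the difference did not pass the test. The Cpt2L-/- livers had 257, 218, 114 and 213 CPM and the DKO livers 259, 279, 170 and 112 CPM. The ff;ff livers had 81.2, 151, 150 and 99.2 CPM and the Rab30L-/- livers 138, 141, 163 and 123 CPM. The groups overlapped because Cpt2L-/- replicate 3 and DKO replicate 4 sat among the livers with Cpt2. The log2 fold change was 0.73 (SE 0.27, edgeR adjusted p = 0.0691) in Cpt2L-/- over ff;ff, 0.76 (SE 0.30, adjusted p = 0.113) in DKO over ff;ff and 0.54 (SE 0.25, adjusted p = 0.130) in DKO over Rab30L-/-. The first was called in 4 of 14 alternative fits, among them DESeq2, limma-voom and the fit without Cpt2L-/- replicate 3, at 0.92.

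Ppard, the broadly expressed PPAR, was low in all livers, at 4.4 to 11.3 CPM, and was called in 0 of the 7 comparisons by edgeR, with an unadjusted p of at least 0.182 and 0 calls in any alternative fit. Its log2 fold changes lay between -0.30 and -0.09, with SE of 0.18 to 0.27.

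**Figure D2:**
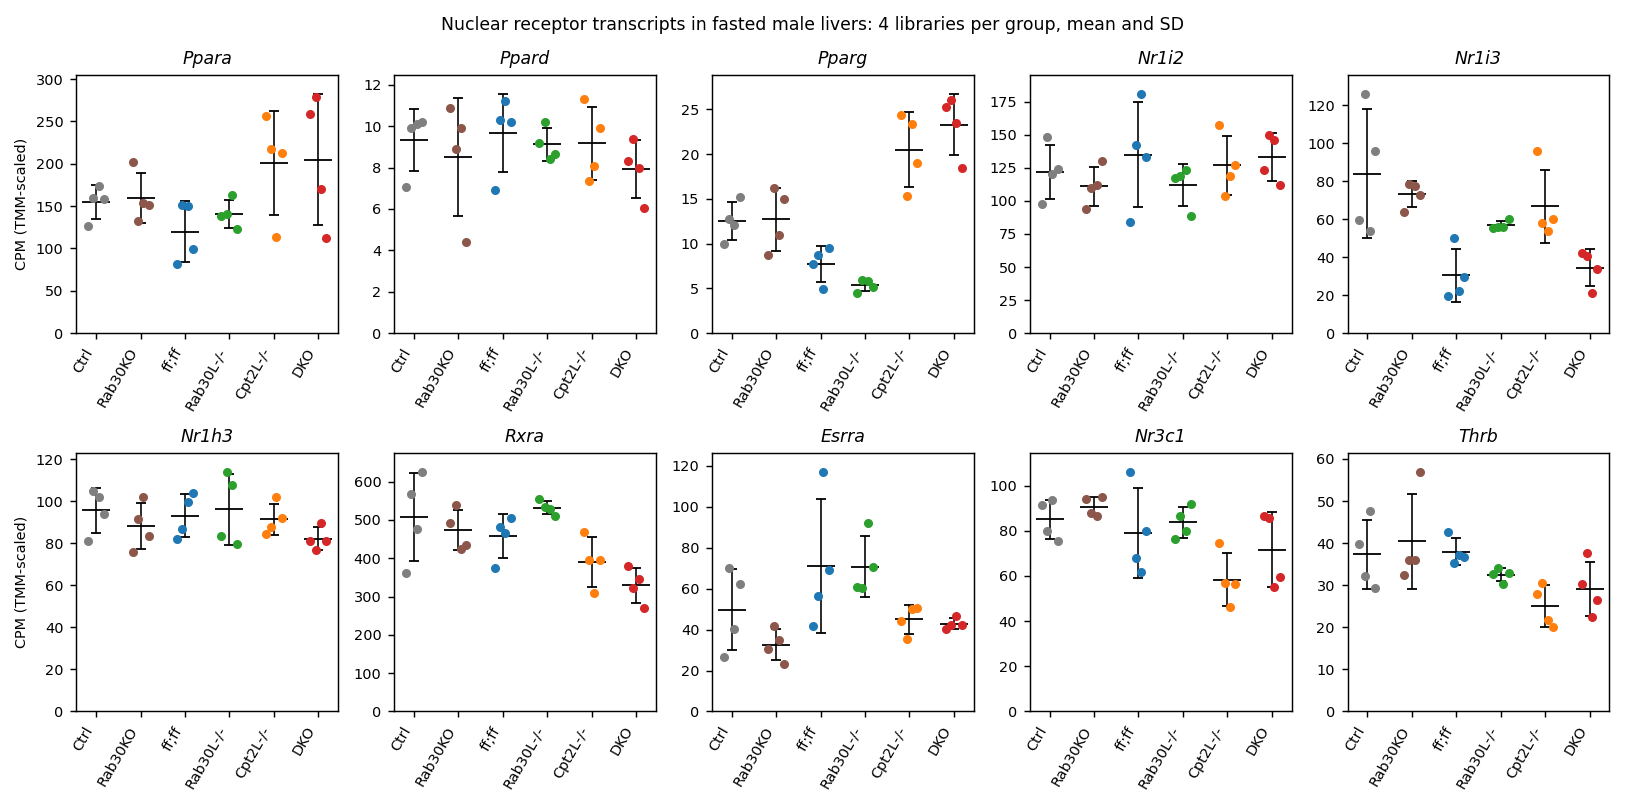
CPM of each receptor in the 6 groups, with 4 libraries per group as points and the group mean with its SD as a line and bars; axes start at 0. Pparg sat at 15.3 to 26.1 CPM in Cpt2L-/- and DKO and at 4.53 to 9.52 in ff;ff and Rab30L-/-, while Nr1i3 was low in ff;ff and DKO.

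Rxra, which pairs with the PPARs, Nr1i2, Nr1i3, Nr1h3 and Thrb, was lower in DKO than in Rab30L-/- livers. The DKO livers had 379, 322, 347 and 269 CPM and the Rab30L-/- livers 554, 533, 529 and 511 CPM, with no overlap. Rxra fell 1.61-fold (log2 fold change -0.69, SE 0.14, edgeR adjusted p = 0.00414), and all 14 alternatives kept this call. Cpt2L-/- livers had 308 to 469 CPM and ff;ff livers 374 to 505. The matching log2 fold changes were -0.23 (SE 0.17, edgeR adjusted p = 0.353) in Cpt2L-/- over ff;ff and -0.48 (SE 0.16, adjusted p = 0.0635) in DKO over ff;ff, the last called in 4 of 14 alternatives. The interaction of -0.45 (SE 0.21, adjusted p = 0.229) was not called.

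Nr1i3, the constitutive androstane receptor that induces drug-metabolizing enzymes, was the only one of the 10 with a called interaction. The ff;ff livers had 19.7, 50.1, 22.4 and 29.5 CPM and the DKO livers 42.4, 40.5, 21.1 and 33.6 CPM. The Rab30L-/- livers had 55.2, 55.8, 55.6 and 60.3 CPM and the Cpt2L-/- livers 95.6, 57.7, 54.0 and 59.9 CPM. Both groups with 1 deletion therefore stood above the group with neither and the group with both. Ctrl livers, at 53.6 to 126 CPM, and Rab30KO livers, at 63.8 to 78.4 CPM, were also above every ff;ff and DKO liver. The low groups, ff;ff and DKO, are the 2 labelled as littermates of each other, so the shared litters and the pairing of deletions cannot be told apart.

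Nr1i3 was 2.18 times as high in Cpt2L-/- as in ff;ff (log2 fold change 1.12, SE 0.29, edgeR adjusted p = 0.0160) and fell 1.65-fold in DKO against Rab30L-/- (-0.72, SE 0.19, edgeR adjusted p = 0.0138). Each call was lost in 1 of 14 alternatives, with adjusted p of 0.0505 and 0.0571. The log2 difference of Rab30L-/- from ff;ff was 0.89 (SE 0.26, edgeR adjusted p = 0.214) and rose to 1.25, a call, without ff;ff replicate 2. DKO against Cpt2L-/- gave -0.95 (SE 0.24, adjusted p = 0.0651), called by DESeq2 and limma-voom. The interaction, the difference between the Rab30 effect without Cpt2 and with it, was -1.83 (SE 0.38, edgeR adjusted p = 0.0142), and all 22 alternatives kept the call, between -2.19 and -1.43. DKO and ff;ff themselves differed by 0.16 (SE 0.30, edgeR adjusted p = 0.767).

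Nr1i3 shares 4691 bp with Tomm40l, a gene of the mitochondrial import machinery on the opposite strand, and the sources used here do not say whether counting used strand. Tomm40l had 18.4% to 46.7% of the Nr1i3 count and was the gene most like Nr1i3 over the 24 libraries (Pearson's r = 0.88 of log2 CPM, 0.72 after removing group means). It rose in Cpt2L-/- over ff;ff (1.22, SE 0.26, edgeR adjusted p = 0.00384) and had an interaction of -1.45 (SE 0.38, edgeR adjusted p = 0.0395). In DKO against Rab30L-/- its log2 fold change was -0.25 (SE 0.24, edgeR adjusted p = 0.468). If counting did not use strand, reads of the 2 genes cannot be told apart where they overlap.

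**Figure D3:**
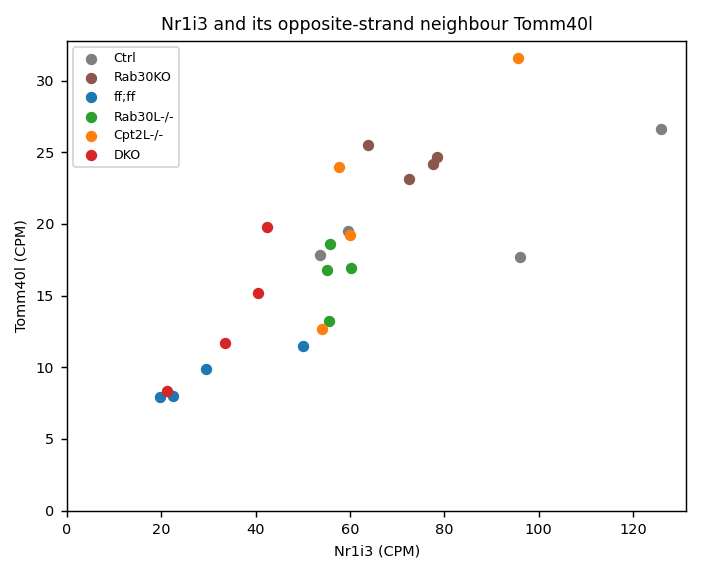
CPM of Nr1i3 (x axis) against Tomm40l (y axis), 1 point per library, coloured by group. The ff;ff and DKO livers lay at or below 50.1 CPM of Nr1i3, the other 4 groups at or above 53.6 CPM, and the 3 livers with the least Nr1i3, ff;ff replicates 1 and 3 and DKO replicate 3, were also the 3 lowest in Tomm40l.

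Nr1i2, the pregnane X receptor that shares many target genes with Nr1i3, did not move with it. It lay at 83.8 to 181 CPM over all livers, with log2 fold changes from -0.28 to 0.35 and 0 of 7 calls by edgeR, where the lowest unadjusted p was 0.111 and no alternative fit called it. In the interaction it was 0.35 (SE 0.27, edgeR adjusted p = 0.469), where Nr1i3 was -1.83.

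Nr1h3, the liver X receptor that senses oxysterols, had the narrowest range of all 10 relative to its level, at 76.1 to 114 CPM. Its log2 fold changes lay between -0.22 and 0.04, with SE of 0.10 to 0.18 and 0 of 7 calls by edgeR, where the lowest unadjusted p was 0.122 and no alternative fit called it. Nr1h3 is also expressed in macrophages, and summed Kupffer cell markers (10 genes) were 186 to 252 CPM in DKO and 264 to 750 CPM in Rab30L-/-. The sums in Cpt2L-/- (205 to 292 CPM) and ff;ff (208 to 381 CPM) overlapped those in DKO. Ctrl had 424 to 706 CPM and Rab30KO 313 to 1533 CPM.

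Esrra, the estrogen-related receptor that supports mitochondrial gene expression, was lower in DKO than in Rab30L-/- livers. The DKO livers had 40.1, 42.3, 46.6 and 42.4 CPM and the Rab30L-/- livers 60.7, 60.1, 91.9 and 70.5 CPM, without overlap. Esrra fell 1.65-fold (-0.72, SE 0.14, edgeR adjusted p = 0.00297), a call lost in 1 of 14 alternatives, the fit over all 24 libraries. The ff;ff livers spread widely, at 41.7, 56.2, 117 and 69.3 CPM, and Cpt2L-/- livers had 35.4 to 50.7 CPM. Against ff;ff the log2 fold change was -0.67 in Cpt2L-/- (SE 0.27, edgeR adjusted p = 0.0927) and -0.74 in DKO (SE 0.26, adjusted p = 0.0803), and 2 and 3 of 14 alternatives called them. Esrra was also the receptor furthest from 0 in Rab30KO over Ctrl, at -0.61 (SE 0.29, edgeR adjusted p = 1, unadjusted p = 0.0598). It shares 73 bp with Trmt112 on the opposite strand, which rose in Cpt2L-/- over ff;ff (0.63, SE 0.21, edgeR adjusted p = 0.0486), against the direction of Esrra.

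Thrb, the main thyroid hormone receptor of hepatocytes, was lower in Cpt2L-/- than in ff;ff livers. The Cpt2L-/- livers had 27.9, 30.5, 21.7 and 20.1 CPM and the ff;ff livers 42.6, 35.3, 37.2 and 36.8 CPM, without overlap. Thrb fell 1.53-fold (-0.61, SE 0.16, edgeR adjusted p = 0.0149), a call lost without Cpt2L-/- replicate 4 (-0.52, adjusted p = 0.0607). DKO livers, at 22.4 to 37.6 CPM, overlapped those of ff;ff (-0.39, SE 0.16, edgeR adjusted p = 0.134) and of Rab30L-/- (-0.15, SE 0.15, adjusted p = 0.485).

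Nr3c1, the glucocorticoid receptor, had 74.4, 56.8, 46.2 and 56.2 CPM in Cpt2L-/- and 106, 68.1, 61.8 and 79.7 CPM in ff;ff. The groups overlapped, and the log2 fold change of -0.44 (SE 0.20, edgeR adjusted p = 0.121) was not called. In DKO the values fell into a pair at 86.3 and 85.5 CPM and a pair at 55.1 and 59.5 CPM, with -0.15 (SE 0.20, edgeR adjusted p = 0.682) against ff;ff. Over the 24 libraries Nr3c1 and Thrb had the highest correlation of any pair among the 10 receptors (r = 0.76, and 0.60 after removing group means), in libraries that share their depth and scaling.

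Counted by comparison, loss of Rab30 in livers with Cpt2 called none of the receptors. In Rab30KO over Ctrl edgeR called 0 of 10, where it called 0.022% of 13656 genes, with 0 calls by DESeq2 and 0 by limma-voom. An unadjusted p under 0.05 was found for 0 of 10, beside 2.21% of all genes. In Rab30L-/- over ff;ff edgeR called 0 of 10 against 0.479% of 13367 genes, and DESeq2 and limma-voom called 0. There 2 had an unadjusted p under 0.05, Pparg and Nr1i3, beside 11.2% of all genes. Rab30L-/- and ff;ff livers did not overlap for Nr1i3, for Rxra (0.21, SE 0.15, edgeR adjusted p = 0.633) or for Thrb (-0.23, SE 0.12, edgeR adjusted p = 0.516). How many of all genes were as separate was not counted, and none of these receptors was called. In DKO over Cpt2L-/- edgeR called 0 of 10 against 2.71% of 13306 genes, and 1, Nr1i3, had an unadjusted p under 0.05 and was called by both other tools. Of all genes 21.7% had an unadjusted p under 0.05 there.

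Loss of Cpt2 called more. In Cpt2L-/- over ff;ff 3 of 10 were called, 2 higher and 1 lower, beside 23.8% of 13270 genes, 11.9% higher and 11.9% lower. In DKO over Rab30L-/- 4 of 10 were called, 1 higher and 3 lower, beside 30.7% of 13292 genes, 14.9% higher and 15.8% lower. In DKO over ff;ff 1 of 10 was called, beside 16.1% of 13389 genes. The interaction called 1 of 10, beside 4.06% of 14063 genes. These shares lay near those of all genes. The median absolute log2 fold change of the 10 receptors was 0.53 in Cpt2L-/- over ff;ff and 0.40 in DKO over Rab30L-/-, against 0.34 and 0.37 over all genes tested.

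**Figure D4:**
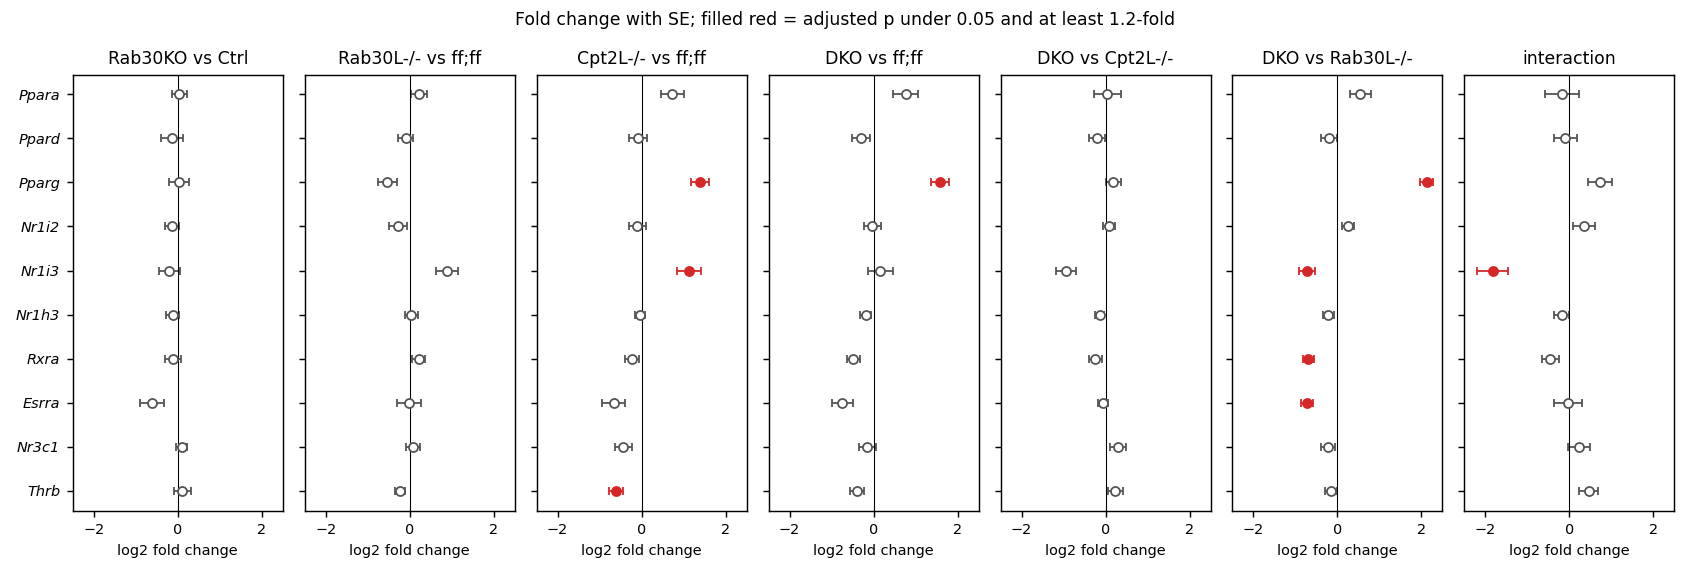
Log2 fold change with its SE for each receptor in 6 comparisons and the interaction; filled red points were called. Pparg was called in the 3 comparisons of livers without and with Cpt2, at 1.39 to 2.12, and Nr1i3 changed sign between Cpt2L-/- over ff;ff (1.12) and DKO over Rab30L-/- (-0.72).

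Cpt2L-/- over ff;ff and DKO over Rab30L-/- share no library, and Pparg was the 1 receptor called higher in both, as were 6.28% of 12970 genes. No receptor was called lower in both, as were 6.71% of genes. Nr1i3 was called in opposite directions, as were 0.386% of genes.

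Known targets of the receptors were counted from lists written for each, and a pair of log2 fold changes gives Cpt2L-/- over ff;ff first and DKO over Rab30L-/- second. Targets are named where they were called in the same direction in both, and the others named were chosen after their values were seen. Ppara targets rose where Ppara itself was not called. Of 27 tested, 18 rose and 0 fell in Cpt2L-/- over ff;ff, with a median log2 fold change of 0.98, leaving out Cpt1b, whose low counts did not pass the filter in Rab30L-/- over ff;ff. In all, 21 of 27 rose in DKO over Rab30L-/-, with a median of 1.54. The shares called were 66.7% and 77.8%, beside 23.8% and 30.7% of all genes, while the medians over all genes were -0.003 and -0.012. Ehhadh, a peroxisomal fatty acid oxidation enzyme, went from 1010 to 9949 CPM (3.29, SE 0.23, edgeR adjusted p = 1.63e-06) and from 1008 to 9414 CPM (3.23, SE 0.45, adjusted p = 8.24e-04). Pdk4, the kinase that shuts off pyruvate oxidation, rose by 3.83 (SE 0.47) and 6.83 (SE 0.31).

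Of 6 tested genes that Pparg is known to drive in fatty liver, 4 rose and 0 fell in each of the comparisons of Cpt2L-/- over ff;ff and DKO over Rab30L-/-, and 3 rose in DKO over ff;ff. These were 66.7% in each of the first comparisons, beside 23.8% and 30.7% of all genes, and 50% in the last, beside 16.1%. Mogat1, a further gene of the list, passed the filter only through the livers without Cpt2, with 0 to 16 counts per library in ff;ff and Rab30L-/- and 13 to 61 in Cpt2L-/- and DKO, and is left out of these counts. Lpl (-0.26, SE 0.23, and -0.10, SE 0.22) and Fabp5 (edgeR adjusted p = 0.317 and 0.0513, with a lower mean in both) were not called. Cidec, which enlarges lipid droplets, went from 38.9 to 451 CPM (3.52, SE 0.28, edgeR adjusted p = 4.59e-06) and from 41.8 to 326 CPM (2.97, SE 0.54, adjusted p = 0.00538). Cd36, a fatty acid transporter that stands in the Ppara list too, rose by 3.40 (SE 0.31) and 2.96 (SE 0.27).

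Targets shared by Nr1i2 and Nr1i3 went both ways. In Cpt2L-/- over ff;ff 1 of 15 rose and 5 fell, and in DKO over Rab30L-/- 3 rose and 4 fell. The shares called were 40% and 46.7%, beside 23.8% and 30.7% of all genes. These counts leave out Gsta1, a glutathione transferase, which passed the filter on low counts only through the livers without Cpt2. It had 0 to 6 counts per library in ff;ff and 1 to 13 in Rab30L-/-, against 44 to 73 in Cpt2L-/- and 31 to 183 in DKO. Slco1a4, an organic anion transporter, fell in both (-1.97, SE 0.54, and -1.81, SE 0.23), as did Cyp2c29 (-0.86, SE 0.28, and -1.94, SE 0.28). The interaction called 2 of 16, Cyp3a11 at 3.45 and Cyp3a13 at -2.37, in opposite directions, beside 4.06% of all genes. The 16 include Gsta1, which was not called there.

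Of 19 Nr3c1 targets tested, 8 fell, 0 rose and 11 were not called in Cpt2L-/- over ff;ff, with a median of -1.18. The 19 and the median include Sult1e1 (-3.94, SE 1.29), which was not called. It passed the filter on low counts in comparisons with ff;ff, but not in DKO over Rab30L-/- or DKO over Cpt2L-/-. The share called was 42.1%, beside 23.8% of all genes. In the same comparison 5 of 8 hepatocyte markers fell, with a median of -1.13, and Tat stands in both lists. The part of that fall in the target values was not tested. In all, 2 of 18 Nr3c1 targets fell in DKO over Rab30L-/-, with a median of -0.27, beside 4 of 8 hepatocyte markers, with a median of -0.49. That share, 11.1%, lay below the 30.7% of all genes. Tsc22d3, the glucocorticoid-induced leucine zipper, went from 219 CPM in ff;ff to 39.4 in Cpt2L-/- (-2.49, SE 0.20, edgeR adjusted p = 3.34e-06) and from 105 CPM in Rab30L-/- to 56 in DKO (-0.91, SE 0.21, adjusted p = 0.00725). The interaction called 4 of 19 targets higher, Tsc22d3, Dusp1, G6pc and Tdo2, where it called 4.06% of all genes, and 1 of 8 hepatocyte markers was called higher there, with a list median of 0.52. In Rab30L-/- over ff;ff 2 of 19 Nr3c1 targets were called, beside 0.479% of all genes and 0 of 8 hepatocyte markers. The called targets were Tsc22d3 at -1.07 and G6pc, which releases glucose, at -1.28.

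Nr1h3 targets gave 2 rises and 4 falls of 13 in Cpt2L-/- over ff;ff, and 1 rise and 3 falls in DKO over Rab30L-/-. The shares called were 46.2% and 30.8%, beside 23.8% and 30.7% of all genes. Cyp7a1, the rate-limiting enzyme of bile acid synthesis, fell in both (-3.46, SE 0.79, and -2.11, SE 0.53), as did Srebf1, the lipogenic regulator (-1.02, SE 0.19, and -0.75, SE 0.16). Lpcat3, a phospholipid remodelling enzyme, rose by 0.70 (SE 0.14) and 0.72 (SE 0.15). Of 10 Esrra targets, 1 rose and 1 fell in Cpt2L-/- over ff;ff, and 3 rose in DKO over Rab30L-/-. Among these 3 was Acadm, which stands in the Ppara list too. The shares called, 20% and 30%, lay near the 23.8% and 30.7% of all genes. Cs, citrate synthase, rose in both, by 1.13 (SE 0.16) and 1.25 (SE 0.19). Of 6 Thrb targets, 3 rose and 1 fell in both comparisons, a share of 66.7% beside 23.8% and 30.7% of all genes. Me1, the cytosolic malic enzyme, rose by 1.25 (SE 0.20) and 1.97 (SE 0.22), Gpd2 rose by 1.01 (SE 0.22) and 1.77 (SE 0.18), and Thrsp, a lipogenic thyroid hormone target, fell (-2.78, SE 0.32, and -2.64, SE 0.28).

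**Figure D5:**
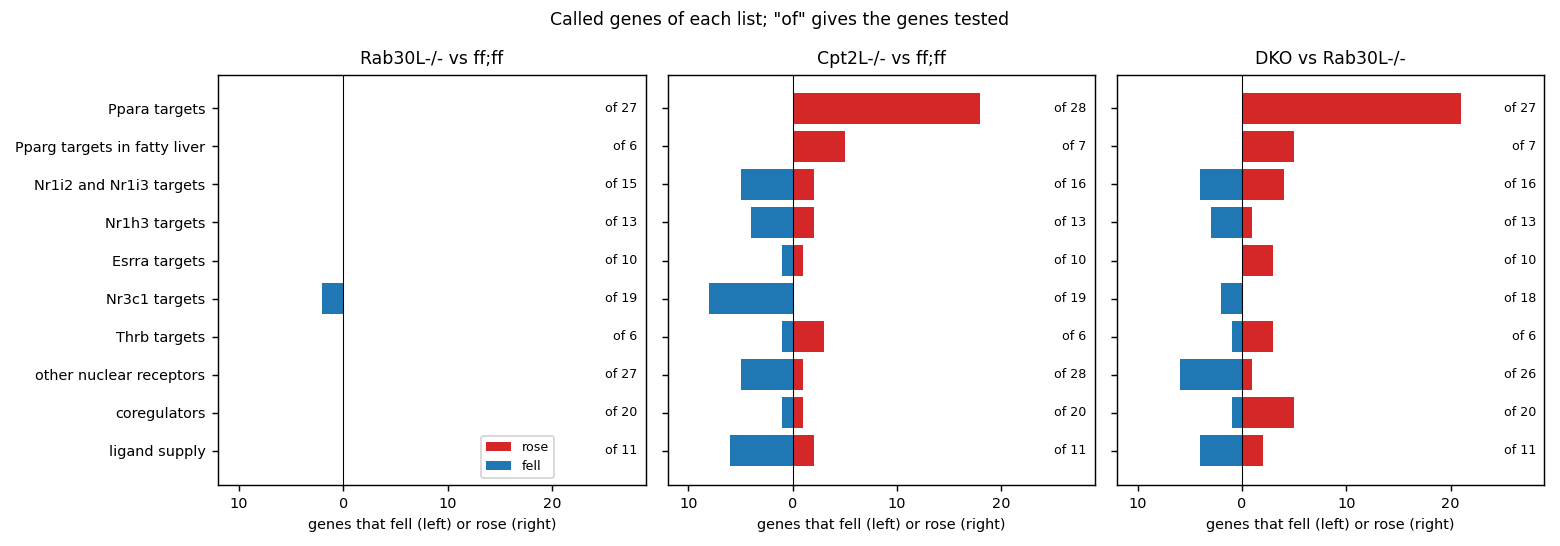
Number of genes of each list that rose (right, red) or fell (left, blue) in 3 comparisons, with the number tested at the right edge of each panel; the bars and these numbers include Mogat1, Gsta1, Cpt1b and Esrrb where they were tested. Ppara targets rose in 18 and 21 cases without Cpt2, Nr3c1 targets fell in 8 of 19 and 2 of 18, and in Rab30L-/- over ff;ff 2 genes in all were called.

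Among 39 other nuclear receptors listed, 27 were tested in Cpt2L-/- over ff;ff, where 1 rose and 5 fell (leaving out Esrrb for the same reason as Cpt1b), and 26 in DKO over Rab30L-/-, where 1 rose and 6 fell. The 27 include Nr2f1 (-1.22, SE 0.48, not called). It passed the filter in comparisons with ff;ff, but not in DKO over Rab30L-/- or DKO over Cpt2L-/-. The shares called, 22.2% and 26.9%, lay near the 23.8% and 30.7% of all genes. Nr0b2 and Esr1 fell in both. Nr0b2, the small heterodimer partner that represses other receptors, had log2 fold changes of -3.94 (SE 0.53, edgeR adjusted p = 5.05e-04) and -3.37 (SE 0.78, adjusted p = 0.0156), from 21.4 CPM in ff;ff and 22.8 in Rab30L-/- to 1.4 and 2.21. Esr1, an estrogen receptor, was at -0.81 (SE 0.25) and -1.07 (SE 0.24). Of 20 coregulators, 1 rose and 1 fell in Cpt2L-/- over ff;ff and 5 rose and 1 fell in DKO over Rab30L-/-, with 0 in the same direction in both, and the shares called were 10% and 30%, beside 23.8% and 30.7% of all genes. Genes that make or carry receptor ligands fell in 6 of 11 cases and rose in 2 in Cpt2L-/- over ff;ff, and fell in 4 and rose in 2 in DKO over Rab30L-/-. The shares called were 72.7% and 54.5%, beside 23.8% and 30.7% of all genes. Some of these genes stand in other lists too: Fabp1 in the Ppara list, Fasn in the Nr1h3 list, Dio1 in the Thrb list and Ttr among the hepatocyte markers. Serpina6, the corticosteroid-binding globulin, fell in both (-4.04, SE 0.54, and -3.01, SE 0.74). Cyp7b1, an oxysterol hydroxylase, fell too (-2.30, SE 0.31, and -2.52, SE 0.76), and Serpina7, the thyroxine-binding globulin, rose by 2.60 (SE 0.49) and 1.88 (SE 0.43).

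Markers of other liver cells moved in some of the same comparisons. In DKO over Rab30L-/-, where Rxra and Esrra fell, 8 of 10 Kupffer cell markers fell and 1 rose, where 30.7% of all genes were called. Among them Clec4f and Timd4 fell in both comparisons (-0.69 and -0.93 in Cpt2L-/- over ff;ff, -0.90 and -1.54 in DKO over Rab30L-/-), while the lysosomal macrophage marker Cd68 rose (2.60 and 2.44). In Cpt2L-/- over ff;ff, where 23.8% of all genes were called, 3 fell and 1 rose, and 5 of 8 hepatocyte markers fell, with Ass1 (-2.02 and -1.51) and Serpina1a (-1.65 and -1.32) lower in both comparisons. The 10 stellate cell markers summed to 401 to 438 CPM in Cpt2L-/- and 195 to 430 in ff;ff, and the 10 endothelial markers to 318 to 394 and 343 to 525 CPM. Bile duct markers (8 genes) summed to 125 to 206 CPM in Cpt2L-/- and 94.9 to 143 in ff;ff. Of 5 tested there, Tm4sf4 rose (0.71, SE 0.22) and Sox9 fell (-2.26, SE 0.35), and the median was -0.46, leaving out Krt19, which did not pass the filter in Rab30L-/- over ff;ff. Sox9 fell in DKO over Rab30L-/- too (-2.01, SE 0.34). Lymphocyte markers (8 genes) summed to 6.73 to 9.29 and 5.65 to 11.1 CPM. The part of these shifts in the receptor values was not tested.

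For each receptor called at least once, the 2 protein-coding genes with the most similar log2 CPM over the 24 libraries were named, out of 9231 with a mean of at least 5 CPM. For Pparg these were C2cd2 and Frmd6 (both r = 0.88), which kept 0.47 and 0.36 after group means were removed. Parp1 came second for Nr1i3, after Tomm40l (r = 0.83 and 0.68 within groups). Rxra was closest to Repin1 (0.90) and Esrp2 (0.88), Esrra to Egln2 (0.90) and Zfp787 (0.89), and Thrb to Slc25a13 (0.91) and the nuclear receptor Nr5a2 (0.94). In these 3 the correlation within groups was 0.81 to 0.93. The libraries share depth and scaling, and the values are a description.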

How the data were processed

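RNA was extracted from 24 livers of fasted male mice, and libraries were made and sequenced by a service provider (Novogene). The submitters' processing notes name HISAT2, DESeq2 and the mouse build GRCm38 (mm10). The deposited gene counts are whole reads assigned to genes, not normalized, and the deposited FPKM values divide the authors' counts by gene length and by a library scaling that was 0.851 to 1.142 times the library total. Whether counting used strand is not given in the sources used here. The authors' normalized table and their tables of fold changes and p-values were not used. All columns of the tables used belonged to a sample (0 did not).

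Counts were scaled by trimmed mean of M-values and tested with edgeR 4.0.16 (quasi-likelihood, R 4.3.3) within the 8 libraries of each comparison after edgeR's filter on low counts, and the interaction within 16 libraries. A call needed an adjusted p under 0.05 and a 1.2-fold change. DESeq2 1.42.0, limma 3.58.1 and the other alternatives are given in the closing section. The fits were tested on simulated data with 200 changed genes, where the raised genes had a median log2 fold change of 0.96 to 1.05. They recovered 24.5% of the changed genes in Rab30KO over Ctrl, 37.5% in Rab30L-/- over ff;ff and 19% in the interaction. In the other comparisons they recovered 43.5% to 66.5%. A receptor that was not called can therefore still have changed. Replicates are separate livers, 4 per group, numbered in the order of their records, and no pair of libraries agreed within sampling noise. The genes named are all 10 receptors in every comparison, from each target list the genes called in the same direction in both comparisons without shared libraries (at most 2 rises and 2 falls), and for each called receptor its 2 most similar genes. The other genes named were chosen after their values were seen. The receptors and the gene lists were chosen with earlier results of these data known. Promoter sequences come from RefSeq (GRCm38.p6) and were read for 9 receptors.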

Additional observations from a re-analysis of the deposited data

Results flagged for a closer look

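The Nr1i3 difference between groups with and without the Rab30 deletion was not the same without Cpt2 (DKO and Cpt2L-/-) as with it (Rab30L-/- and ff;ff), with an interaction of -1.83 on the log2 scale (edgeR adjusted p = 0.0142). The low groups, ff;ff and DKO, are littermates by their labels, so litter and genotype cannot be told apart. In 4 of the 60 combinations of receptor and group, 1 liver stood far from the other 3 by Dixon's test, where chance flags about 1 in 20. Ppard was 7.07 CPM in Ctrl replicate 1, against 9.93 to 10.2 in the others. Nr1i3 was 60.3 CPM in Rab30L-/- replicate 4, against 55.2 to 55.8, a small gap in a tight group, and 95.6 CPM in Cpt2L-/- replicate 1, against 54.0 to 59.9. Thrb was 56.9 CPM in Rab30KO replicate 4, against 32.4 to 36.1.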

How the results depend on the processing

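All 10 receptors passed the count filter in every comparison, and each kept its direction wherever it was called, in all fits run. DESeq2's Wald test called 5 receptors in Cpt2L-/- over ff;ff (main 3), 3 in DKO over ff;ff (main 1) and 1 in DKO over Cpt2L-/- (main 0), and limma-voom with sample weights called 4, 1 and 2 in DKO over ff;ff, DKO over Cpt2L-/- and the interaction (main 1, 0 and 1). A fit over all 24 libraries called 3 in DKO over ff;ff and 2 in DKO over Rab30L-/- (main 4), where Nr1i3 (adjusted p = 0.0571) and Esrra (adjusted p = 0.0526) lost their calls. Without the filter on low counts Nr1i3 lost its call in Cpt2L-/- over ff;ff (adjusted p = 0.0505). Removing the fold threshold and using DESeq2's size factors changed no count of receptors by over 1.5 times. Leaving out 1 liver at a time gave receptor counts of 0 to 0 in Rab30KO over Ctrl, 0 to 1 in Rab30L-/- over ff;ff, 2 to 4 in Cpt2L-/- over ff;ff, 1 to 3 in DKO over ff;ff, 0 to 0 in DKO over Cpt2L-/-, 4 to 5 in DKO over Rab30L-/- and 1 to 2 in the interaction. The call in Rab30L-/- over ff;ff came without ff;ff replicate 2, 3 calls in DKO over ff;ff came without ff;ff replicate 1 and 2 without DKO replicate 4, and the second in the interaction came without ff;ff replicate 3. Over all genes, DESeq2 called 10 in Rab30KO over Ctrl (main 3), 298 in Rab30L-/- over ff;ff (main 64), 1032 in DKO over Cpt2L-/- (main 360) and 1080 in the interaction (main 571). Limma-voom called 1, 239, 1535 and 1294 there and 3742 in DKO over ff;ff (main 2157). The fit over all libraries called 9 in Rab30KO over Ctrl, 114 in DKO over Cpt2L-/- and 374 in the interaction. Without the filter there were 6, 240 and 705 in Rab30KO over Ctrl, Rab30L-/- over ff;ff and DKO over Cpt2L-/-, and with at least 10 counts in every library 0 and 25 in the first and second of these. Leaving out 1 liver gave 0 to 4 in Rab30KO over Ctrl, 23 to 93 in Rab30L-/- over ff;ff, 2352 to 3459 in Cpt2L-/- over ff;ff, 1485 to 2675 in DKO over ff;ff, 57 to 445 in DKO over Cpt2L-/-, 3204 to 3976 in DKO over Rab30L-/- and 300 to 679 in the interaction, lowest without Rab30L-/- replicate 4 in Rab30L-/- over ff;ff and without Cpt2L-/- replicate 4 in DKO over Cpt2L-/- and in the interaction. Receptors with small differences, none of them called, changed sign when 1 liver was left out. In Rab30KO over Ctrl, Ppara ran from -0.07 to 0.12, Ppard ran from -0.25 to 0.07, Pparg ran from -0.12 to 0.19, Nr1i3 ran from -0.36 to 0.06, Rxra ran from -0.23 to 0.01 and Thrb ran from -0.11 to 0.25. In Rab30L-/- over ff;ff, Nr1h3 ran from -0.06 to 0.11, Esrra ran from -0.20 to 0.33 and Nr3c1 ran from -0.03 to 0.25. In Cpt2L-/- over ff;ff, Nr1i2 ran from -0.27 to 0.08 and Nr1h3 ran from -0.10 to 0.01. In DKO over ff;ff, Nr1i2 ran from -0.20 to 0.14 and Nr3c1 ran from -0.25 to 0.03. In DKO over Cpt2L-/-, Ppara ran from -0.16 to 0.25, Nr1i2 ran from -0.00 to 0.20 and Esrra ran from -0.15 to 0.00. In the interaction, Ppara ran from -0.38 to 0.03, Ppard ran from -0.19 to 0.03 and Esrra ran from -0.39 to 0.15. Limma-voom turned the sign of 7, to -0.01 for Ppara in Rab30KO over Ctrl, -0.04 for Pparg in Rab30KO over Ctrl, -0.00 for Nr1h3 in Rab30L-/- over ff;ff, 0.09 for Esrra in Rab30L-/- over ff;ff, 0.09 for Nr3c1 in DKO over ff;ff, 0.09 for Ppara in the interaction and 0.04 for Ppard in the interaction. The causes were not tested. No paired analysis was possible because the labels give no replicate numbers shared between groups. The lowest count of any receptor in a library was 60, for Pparg.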
